A study of Homo sapiens with 4 samples.

Results

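Tight junction genes were examined in cells labelled MDA-MB-231 that express LKB1 from a plasmid and in cells of the same label with an empty plasmid. In a check given below, 1 of the 2 groups did not match that cell line, which touches each difference reported. The 9 genes taken were the claudins CLDN1, CLDN4, CLDN7, CLDN11 and CLDN12, occludin (OCLN), JAM-A (F11R) and the zonula occludens genes TJP1 and TJP3. They were found by gene name among 34675 genes of the authors' deposited table, and all 9 were present. MDA-MB-231, an established cell line, came from a pleural effusion of a triple-negative breast carcinoma and was grown on plastic in DMEM with 10% serum. The LKB1 line stably carries pcDNA with FLAG-tagged wildtype LKB1, the kinase encoded by STK11, and the vector line stably carries pcDNA alone, with 2 libraries of total RNA from each. The labels do not say whether a line is 1 clone or a pool, or whether its 2 libraries came from separate cultures. The p-values therefore set the difference between the lines only against the spread between libraries, which may be technical. With 1 line per plasmid, they do not cover differences between lines made separately. A run tag is shared by 3 libraries and 1 LKB1 library has another, and the LKB1 titles read fmRNA where the vector titles read mRNA, a term the labels leave unexplained. Neither difference could be tested, because no values of single libraries were at hand.

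Tight junctions seal the space between neighbouring epithelial or endothelial cells and separate the apical from the basolateral membrane. Claudins form the strands and set which ions pass, occludin and the immunoglobulin-like JAM-A accompany them in the membrane, and zonula occludens proteins tie them to actin from the cytoplasmic side. In breast epithelium these proteins mark polarised luminal cells. MDA-MB-231 is usually placed in the claudin-low class of breast cancer lines, which has mesenchymal traits, and LKB1 is known for its part in cell polarity. In epithelial cells AMPK, the kinase that LKB1 activates, is known to promote the assembly of tight junctions.

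The sequences upstream of the 6 members that passed the test of expression given below are shown because repressors of the SNAI and ZEB families bind E-boxes in promoters of junction genes. Promoter windows of 300 bases, with 250 before the start and 50 from it, were taken from RefSeq on GRCh38.p14, where 8 of the 9 members were matched by symbol with 15 windows. For genes with several windows, the one with most E-box matches is printed, or the first where none had a match. Capitals mark CACCTG or its reverse complement CAGGTG, and in CLDN4 they mark TGANTCA, a motif of AP-1 factors that was chosen after the sequences had been seen. The 2 motifs did not overlap. The windows are those of CLDN11 (chr3:170418618-170418917, plus strand), TJP3 (chr19:3721487-3721786, plus strand), CLDN7 (chr17:7262429-7262728, minus strand), CLDN1 (chr3:190322397-190322696, minus strand), OCLN (chr5:69492540-69492839, plus strand) and CLDN4 (chr7:73830746-73831045, plus strand).
CLDN11: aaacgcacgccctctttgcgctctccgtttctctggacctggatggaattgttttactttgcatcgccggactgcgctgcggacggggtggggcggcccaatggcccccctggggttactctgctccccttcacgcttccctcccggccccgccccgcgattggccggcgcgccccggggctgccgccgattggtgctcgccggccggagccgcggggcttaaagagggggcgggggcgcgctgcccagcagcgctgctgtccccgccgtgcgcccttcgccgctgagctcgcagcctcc
TJP3: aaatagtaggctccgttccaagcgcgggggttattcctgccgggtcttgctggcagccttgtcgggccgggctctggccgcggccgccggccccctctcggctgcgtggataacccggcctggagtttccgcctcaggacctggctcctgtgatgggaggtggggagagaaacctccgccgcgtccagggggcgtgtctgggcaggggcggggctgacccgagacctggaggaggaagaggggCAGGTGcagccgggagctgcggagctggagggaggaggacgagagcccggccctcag
CLDN7: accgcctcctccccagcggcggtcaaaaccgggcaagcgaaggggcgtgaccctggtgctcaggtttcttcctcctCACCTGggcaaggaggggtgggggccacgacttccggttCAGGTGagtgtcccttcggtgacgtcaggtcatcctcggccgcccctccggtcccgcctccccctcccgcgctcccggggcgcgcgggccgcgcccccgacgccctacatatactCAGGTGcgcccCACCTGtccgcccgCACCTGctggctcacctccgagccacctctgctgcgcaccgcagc
CLDN1: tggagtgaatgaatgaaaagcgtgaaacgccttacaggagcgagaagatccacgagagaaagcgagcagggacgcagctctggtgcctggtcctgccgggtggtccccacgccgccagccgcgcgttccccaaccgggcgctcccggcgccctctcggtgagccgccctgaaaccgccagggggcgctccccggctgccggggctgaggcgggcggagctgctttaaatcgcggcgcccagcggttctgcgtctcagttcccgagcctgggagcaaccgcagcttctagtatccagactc
OCLN: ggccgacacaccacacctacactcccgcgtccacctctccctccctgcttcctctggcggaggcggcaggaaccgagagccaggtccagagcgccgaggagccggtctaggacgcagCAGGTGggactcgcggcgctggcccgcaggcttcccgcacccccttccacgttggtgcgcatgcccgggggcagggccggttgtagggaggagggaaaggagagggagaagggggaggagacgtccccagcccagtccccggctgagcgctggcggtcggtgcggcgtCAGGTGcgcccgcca
CLDN4: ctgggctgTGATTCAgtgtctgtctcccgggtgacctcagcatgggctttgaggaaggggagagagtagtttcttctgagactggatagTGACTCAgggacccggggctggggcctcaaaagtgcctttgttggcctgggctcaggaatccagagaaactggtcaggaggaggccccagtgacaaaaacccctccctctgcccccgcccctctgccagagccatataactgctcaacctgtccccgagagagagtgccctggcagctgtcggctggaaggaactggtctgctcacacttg

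The printed window of CLDN7 held 5 E-box matches, which began 174, 135, 20 and 9 bases before the start and 5 bases after it. The other window of CLDN7 had none. At least 1 match was found in 20.6% of 35116 RefSeq promoter windows of the same length, and at least 5 were found in 0.094% of them. OCLN had matches 133 bases before and 35 bases after the start of its printed window, and 3.49% of all windows had at least 2. TJP3 had 1 match, 7 bases before the start. CLDN1, CLDN4 and CLDN11 had none in any of their windows. Of the other members, TJP1 had 1 match in 1 of its 4 windows and CLDN12 had none in its single window. The TGANTCA motif was found at 242 and 161 bases before the start of CLDN4 and in no other member's window, against 0.515% of all windows with at least 2. Because this motif was chosen after the sequences had been seen, that share does not measure how unusual the matches are. A match is a run of letters and not a shown binding site, and windows with and without a match were found among the members that fell.

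**Figure D1:**
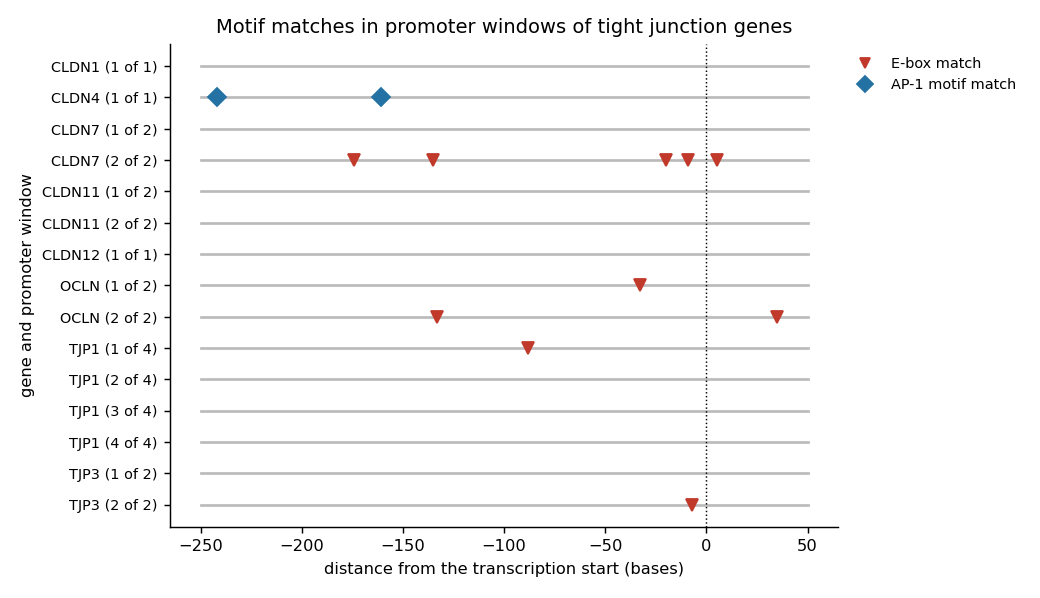
Motif matches in the 15 promoter windows of 8 tight junction genes, plotted by distance from the transcription start in bases, with triangles for CACCTG or CAGGTG and diamonds for TGANTCA. The second window of CLDN7 holds 5 triangles, and the diamonds are found only in the window of CLDN4.

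All folds and p-values come from the authors' deposited table, in which no direction is named. The fold was taken as LKB1 over vector because STK11 (chromosome 19, 1189406 to 1228428, hg19) was then 1.54-fold higher in the LKB1 line (log2 0.62, adjusted p = 0.00105, authors' deposited table). Reads per line, as sums over its 2 libraries, were recovered from the whole-number steps of the fold, and STK11 had 2112 in the LKB1 line and 1321 in the vector line. The direction rests on this gene alone. Of its 24 nearest protein-coding genes with at least 200 reads, 17 were above 0 and 2 were called, with a median log2 fold of 0.19. In an exact negative binomial test with a variation of 0.2 assumed between libraries, STK11 did not pass (adjusted p = 0.551). The LKB1 line was sequenced 1.04 times as deeply as the vector line. When the groups were checked against the cell line on their labels, 1 of the 2 did not match, and this touches each difference given here. CDKN2A, a gene known to be deleted in MDA-MB-231 cells and looked up after other values were seen, had 3 reads in the LKB1 line and 32 in the vector line, a ratio of 11.1 between vector and LKB1 (exact Clopper-Pearson 95% interval 3.47 to 56.6, counting error only). MTAP, which lies beside it and was looked up with it, had 2 reads in the LKB1 line and 37 in the vector line, a ratio of 19.2 between vector and LKB1 (interval 4.96 to 165). Reads of a gene that the named line is known to lack were thus found mainly in the vector line. Whether the vector libraries hold RNA of other cells was not tested. The hormone receptor genes were near 0, with 12 and 8 reads for ESR1 and 0 and 4 for PGR in the LKB1 and vector lines. Of 7 markers of the named line with enough reads, 2 rose and none fell at an adjusted p under 0.05. Over all 34675 genes 2.55% were called higher and 3.24% lower. CAV1, AXL, VIM and CD44 were listed as high in the named line, and CDH1, EPCAM and ERBB2 as low. The 2 that rose were CAV1, the caveolin gene (log2 0.64, adjusted p = 0.000647, authors' deposited table), and AXL, a receptor kinase gene (log2 0.42, adjusted p = 0.0387). At an assumed library variation of 0.2 neither passed (adjusted p = 0.468 and 1, by a normal approximation because their read totals were not recovered). VIM was at -0.26 (adjusted p = 0.454) and CD44 at 0.31 (adjusted p = 0.233). Read totals of these 4 genes were not recovered. Of the genes listed as low, CDH1, the E-cadherin gene, had 278 reads in the LKB1 line and 431 in the vector line. EPCAM had 209 and 152 reads and ERBB2 had 1364 and 1104 in the LKB1 and vector lines.

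Of the claudins, 3 were lower in the LKB1 line and 1 was higher, and occludin and ZO-3 were lower as well. CLDN11, TJP3, CLDN7, CLDN1 and OCLN fell by 1.91-fold to 11.6-fold, and CLDN4 rose 1.61-fold. CLDN12, F11R and TJP1 did not pass the test. Calls were made at an adjusted p under 0.05, with the adjustment of the authors' deposited table over all 34675 genes. Of the 9 members 5 were called lower and 1 higher, against 3.24% of all genes called lower and 2.55% called higher, or 5.79% in either direction. All 9 had at least 200 reads over the 4 libraries. Among the 10442 protein-coding genes with that many, 5.97% were called lower and 6.2% higher, 12.2% in either direction. The median log2 fold was -0.93 over the 9 members, -0.04 over all 28242 genes with reads and -0.01 over those protein-coding genes. The members were chosen with these results known, so the counts are a description. With a variation of 0.2 between libraries assumed for every gene, CLDN11 and TJP3 still passed and the other 4 called members did not. In bulk RNA, fewer cells with a transcript and less transcript per cell cannot be told apart.

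**Figure D2:**
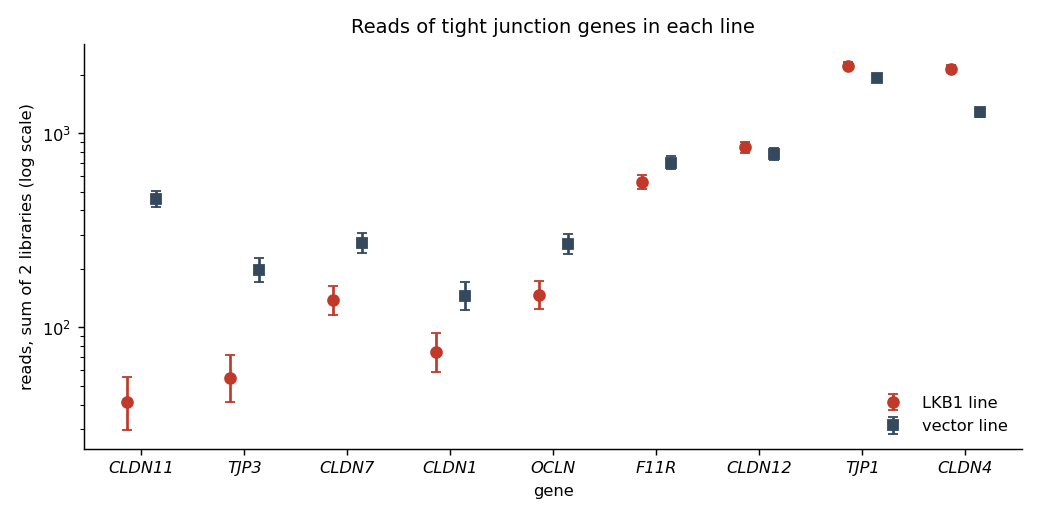
Reads of the 9 tight junction genes on a log scale, as sums over the 2 libraries of each line, with the LKB1 line as circles and the vector line as squares. Bars are exact Poisson 95% intervals, which cover counting error only, and the widest gap is that of CLDN11, with 41 reads in the LKB1 line and 460 in the vector line.

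Among the claudins, CLDN11 (ENSG00000013297.5, chromosome 3, 170136653 to 170578169, plus strand, hg19) differed most. It encodes the claudin of myelin and of the Sertoli cell barrier. It had 41 reads in the LKB1 line and 460 in the vector line. In the authors' deposited table the gene was 11.6-fold lower in the LKB1 line, at a log2 fold of -3.54 (adjusted p = 3.87e-44), and it ranked 22 of 34675 by p-value. The standard error implied by the deposited p was 0.245 on the log2 scale, and counting alone would give 0.235. The implied value is a normal approximation that can be too small at large folds. For the luminal marker SPDEF it was 0.277, below the 0.312 of counting. The spread between libraries therefore cannot be read from these values. Among markers of the cells known for claudin 11, MOG had 0 reads in both lines and SOX9 had 2143 in the LKB1 line and 2041 in the vector line. MBP was at a log2 fold of 0.25 (adjusted p = 0.509, authors' deposited table). Its read totals were not recovered, and it was taken as well covered. AMH had 44 reads in the LKB1 line and 64 in the vector line (log2 -0.59, adjusted p = 0.731, authors' deposited table). None of the 3 such markers with at least 40 reads was called, and 0 had an unadjusted p under 0.05 in the authors' table. The deposited gene model of CLDN11 spans SLC7A14 on the other strand, which had 1 read in each line.

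CLDN7 (ENSG00000181885.13, chromosome 17, 7163222 to 7167302, minus strand), a claudin of breast and gut epithelium that binds EPCAM, had 138 reads in the LKB1 line and 272 in the vector line. It was 2.05-fold lower in the LKB1 line (log2 -1.03, implied SE 0.251, adjusted p = 0.00133, authors' deposited table). Its model overlaps RP1-4G17.5 on the same strand by 2187 bases, and that gene was at a log2 fold of -0.22 (adjusted p = 0.975), so how reads were shared between them is uncertain. CLDN1 (ENSG00000163347.5, chromosome 3, 190023490 to 190040264, minus strand), the claudin of the skin barrier, had 75 reads in the LKB1 line and 145 in the vector line. It was 2.01-fold lower (implied 95% interval of the log2 fold -1.60 to -0.41, adjusted p = 0.02, authors' deposited table), the weakest of the 6 calls. CLDN16, its neighbour on chromosome 3, had 0 reads in the LKB1 line and 2 in the vector line.

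CLDN4 (ENSG00000189143.8, chromosome 7, 73213872 to 73247014, plus strand) encodes a sealing claudin and a receptor of the Clostridium perfringens enterotoxin. It had 2149 reads in the LKB1 line and 1284 in the vector line. It was 1.61-fold higher in the LKB1 line (log2 0.69, implied SE 0.157, adjusted p = 0.000492, authors' deposited table). Counting error alone would give an SE of 0.0509. The 24 nearest protein-coding genes with at least 200 reads had log2 folds with a median of 0.17, of which 20 were above 0 and 4 were called in either direction. The part of this shift in the rise of CLDN4 was not tested. CLDN3, which lies next to CLDN4, had 43 reads in the LKB1 line and 32 in the vector line (log2 0.37, implied SE 0.439, adjusted p = 1, authors' deposited table), an error too wide to separate it from CLDN4 or from 0. CLDN12 (ENSG00000157224.8, chromosome 7, 90013035 to 90142716, plus strand), a widely expressed claudin that lacks the usual PDZ-binding end, had 846 reads in the LKB1 line and 786 in the vector line. Its log2 fold was 0.05 with an implied 95% interval of -0.25 to 0.35 (adjusted p = 1, authors' deposited table). Of its 24 neighbours 22 were above 0, with a median of 0.16, and it overlaps GTPBP10 and CDK14 on its own strand.

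**Figure D3:**
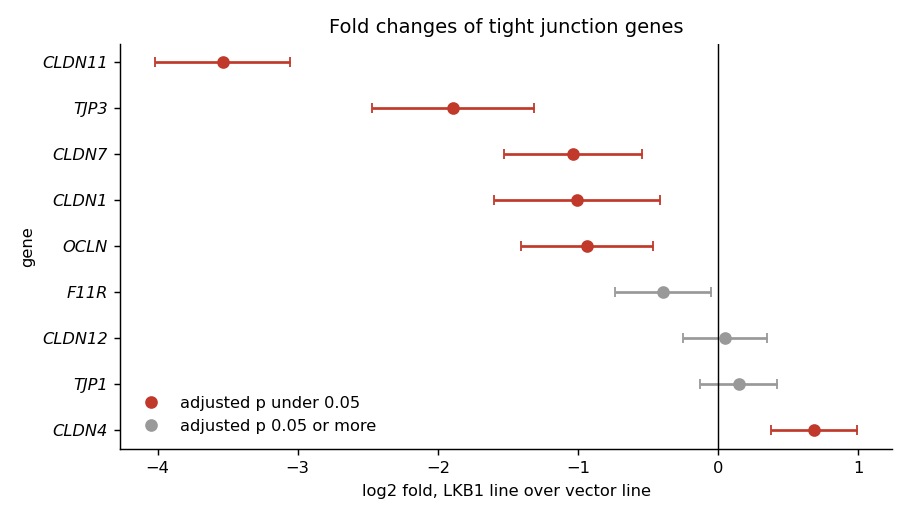
Log2 folds of the 9 tight junction genes, LKB1 line over vector line, with 95% intervals from the standard error that the deposited p-value implies. The intervals of CLDN11 (-4.02 to -3.06) and TJP3 (-2.47 to -1.31) lie below those of the other genes apart from overlaps of TJP3 with CLDN7, CLDN1 and OCLN, and CLDN4 lies above 0.

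Levels of different genes were compared per kilobase of the longest protein-coding transcript. By this length CLDN4 was the highest member in both lines, with 516 reads per kb in the LKB1 line and 308 in the vector line, where the median protein-coding gene had 55.6 and 56.3. In the LKB1 line 89.4% of 17349 protein-coding genes lay below it, and in the vector line 83.3%. CLDN11 lay above 38.1% of these genes in the LKB1 line and above 76.6% in the vector line. Over the 5 member claudins the summed level was 866 reads per kb in the LKB1 line and 924 in the vector line, or 961 when brought to the depth of the LKB1 line. Within that sum CLDN4 made up 59.6% in the LKB1 line and 33.4% in the vector line, and CLDN11 made up 2.18% and 22.95%. CLDN12 held 27.4% in the LKB1 line and 23.9% in the vector line, CLDN7 8.29% and 15.3%, and CLDN1 2.49% and 4.51%. Over all 17 claudins of the table, CLDN4 held 41.4% of 1246 reads per kb in the LKB1 line and 23.0% of 1338 in the vector line. These shares are sums over 2 libraries with no spread between them. With the median transcript length CLDN12 was the highest member, and CLDN4 held 34.9% of the 5 claudins in the LKB1 line and 19.2% in the vector line, and CLDN11 1.26% and 13.0%.

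Of the other membrane members, OCLN (ENSG00000197822.6, chromosome 5, 68788119 to 68853931, plus strand) encodes occludin, a protein with the MARVEL fold that regulates barrier and polarity signals. It had 147 reads in the LKB1 line and 270 in the vector line. It was 1.91-fold lower in the LKB1 line (log2 -0.93, implied SE 0.24, adjusted p = 0.00328, authors' deposited table). OCLN has partial copies elsewhere on chromosome 5, and how reads shared with them were counted is not given in the sources used here. None of its 24 neighbours was called, and their median log2 fold was 0.00. F11R (ENSG00000158769.11, chromosome 1, 160965001 to 161008784, minus strand), whose product JAM-A helps to place the polarity complex at new contacts, had 559 reads in the LKB1 line and 706 in the vector line. Its log2 fold was -0.39 with an implied 95% interval of -0.73 to -0.05, at an unadjusted p of 0.0236 and an adjusted p of 0.242 in the authors' deposited table.

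The plaque genes did not move together. TJP3 (ENSG00000105289.10, chromosome 19, 3708107 to 3750811, plus strand) encodes ZO-3, a zonula occludens protein found mainly in epithelia. It had 55 reads in the LKB1 line and 197 in the vector line. It was 3.71-fold lower in the LKB1 line (log2 -1.89, implied SE 0.295, adjusted p = 1.54e-08, authors' deposited table). The log2 folds of its 24 neighbours had a median of 0.21 and 21 were above 0, so TJP3 stood on the other side of 0 from the genes around it. TJP1 (ENSG00000104067.12, chromosome 15, 29991571 to 30261068, minus strand) encodes ZO-1, the general scaffold that is also found at junctions of non-epithelial cells. It had 2225 reads in the LKB1 line and 1932 in the vector line, and its log2 fold was 0.15 with an implied 95% interval of -0.13 to 0.42 (adjusted p = 1, authors' deposited table). The intervals of TJP3 and TJP1 did not overlap. Per kilobase TJP1 had 280 reads in the LKB1 line and 243 in the vector line, and TJP3 had 16.4 and 58.8.

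The other genes of the junction were taken from lists by role, and 50 of them reached 40 reads in all. Of these 4 rose and 1 fell, and their median log2 fold was -0.03. Over all 34675 genes 2.55% were called higher and 3.24% lower. Among the 10442 protein-coding genes with at least 200 reads the shares were 6.2% and 5.97%. The counts of these lists are a description beside those shares and not a result about junction genes. When a variation of 0.2 was assumed, the 5 calls among the 50 genes were lost. None of 6 further claudins or claudin domain genes with that many reads was called, at a median of -0.09, and 0 had an unadjusted p under 0.05 in the table of the authors. Those with the smallest p were CLDN10, with 284 reads in the LKB1 line and 388 in the vector line (log2 -0.51, adjusted p = 0.593, authors' deposited table), CLDN23 at 0.49, CLDN2 at -0.18 and CLDN3, described above. CLDN2, the claudin of leaky epithelia, had 513 reads in the LKB1 line and 559 in the vector line.

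Of 5 other membrane proteins 1 rose and none fell, with a median log2 fold of 0.40. CXADR, an adhesion molecule of tight junctions and the coxsackievirus and adenovirus receptor, had 411 reads in the LKB1 line and 204 in the vector line (log2 0.95, adjusted p = 0.000285, authors' deposited table). ILDR2 was at 0.65 (adjusted p = 0.0655) and EPCAM, with 209 reads in the LKB1 line and 152 in the vector line, at 0.40 (adjusted p = 0.621). LSR, the angulin of tricellular contacts, was at -0.22 (adjusted p = 0.859). JAM3, an adhesion molecule of endothelial and other junctions, had too few reads for the list and was chosen after its values were seen. It had 1 read in the LKB1 line and 34 in the vector line, a ratio of 35.4 between vector and LKB1 (exact 95% interval 5.93 to 1437), with an adjusted p of 6.18e-07 in the authors' deposited table.

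Among 18 other plaque and scaffold genes 1 rose and 1 fell, at a median of 0.07. INADL, which encodes the scaffold PATJ of the Crumbs complex, had 579 reads in the LKB1 line and 306 in the vector line (log2 0.86, adjusted p = 9.74e-05, authors' deposited table). ARHGEF2, which encodes GEF-H1, a RhoA exchange factor held at junctions by cingulin, had 1239 reads in the LKB1 line and 1802 in the vector line (log2 -0.60, adjusted p = 0.00195). MPDZ and MLLT4, the genes of MUPP1 and afadin, were at 0.45 (adjusted p = 0.1) and 0.38 (adjusted p = 0.16). Of 10 genes of the PAR polarity complex and its partners 2 rose and none fell, at a median of 0.02. PARD6B, an adaptor between CDC42 and atypical protein kinase C, had 1336 reads in the LKB1 line and 723 in the vector line (log2 0.83, adjusted p = 1.07e-05). PARD3B, a relative of the scaffold PARD3, had 781 and 442 reads (log2 0.76, adjusted p = 0.00084). PRKCZ was at -0.56 (adjusted p = 0.13) and LLGL2 at 0.53 (adjusted p = 0.515), while PARD3 was at -0.05.

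None of 8 genes with at least 40 reads on the list of repressors and activators of junction genes was called, at a median log2 fold of -0.27. In the table of the authors 3 of them had an unadjusted p under 0.05. The list also counts CDH1, which encodes the adhesion protein E-cadherin and is not itself such a regulator. KLF5, an epithelial activator, was at -0.56 (adjusted p = 0.0738, authors' deposited table), CDH1 at -0.69 (adjusted p = 0.346), SNAI2 at 0.35 (adjusted p = 0.348) and ESRP2, an epithelial splicing factor, at -0.44 (adjusted p = 0.712). ZEB1, which binds the E-box searched above, was at -0.13 with 1149 reads in the LKB1 line and 1211 in the vector line. Of 3 membrane proteases and inhibitors that act on EPCAM and claudin 7 none was called and 1 had an unadjusted p under 0.05, with SPINT1 at 0.45 (adjusted p = 0.391), SPINT2 at -0.24 (adjusted p = 0.671) and the matriptase gene ST14 at 0.26 (adjusted p = 1).

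**Figure D4:**
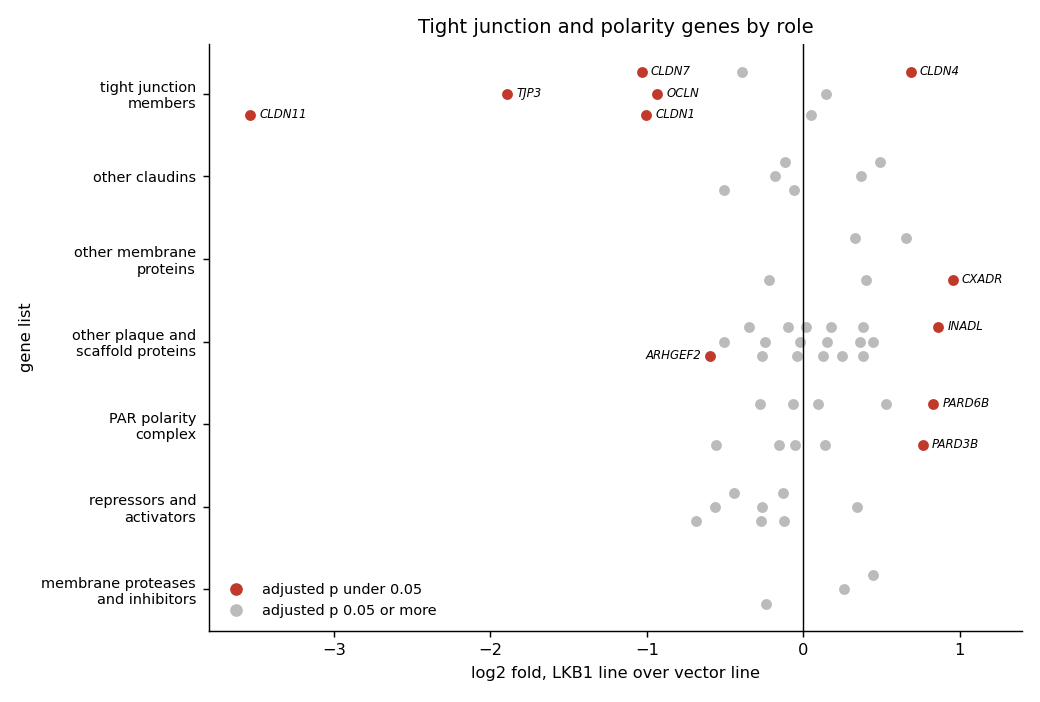
Log2 folds, LKB1 line over vector line, of the 9 tight junction members and of 50 other genes with at least 40 reads, by role, with genes at an adjusted p under 0.05 in red and named. The 5 red points among the members left of 0 and the 4 red points to its right in the other lists are the calls given in the text, with ARHGEF2 as the only other gene called lower.

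Endothelial cells also form tight junctions, and their markers were lower in the LKB1 line as well. Of 8 endothelial markers measured 7 fell and none rose, at a median log2 fold of -3.04, and their summed reads were 580 in the LKB1 line and 2457 in the vector line. ESAM, an endothelial adhesion molecule of tight junctions, had 129 reads in the LKB1 line and 1197 in the vector line (log2 -3.27, adjusted p = 1.18e-56, authors' deposited table). VWF had 25 and 203 reads, CDH5, the cadherin of endothelial junctions, 18 and 121, and TEK 4 and 53 in the LKB1 and vector lines. None of the 8 markers measured was at 0 in either line, and ROBO4 was not called (log2 -0.47, adjusted p = 0.321). The list of 10 markers also held PECAM1 and the endothelial claudin gene CLDN5, which were not analysed here. Of 6 luminal markers with at least 40 reads, SPDEF and AGR2 fell and none rose. SPDEF had 22 reads in the LKB1 line and 816 in the vector line (log2 -5.25, adjusted p = 3.35e-76, authors' deposited table). By p-value it ranked 2 over all genes. AGR2 had 8 and 137 reads (log2 -4.11, adjusted p = 1.68e-17, authors' deposited table). The other 4 were not called. Among them KRT19 had 2792 reads in the LKB1 line and 2948 in the vector line, and GATA3 had 290 and 259. The part of these differences, and of the group that did not match the named line, in the falls of CLDN11, TJP3, CLDN7, CLDN1 and OCLN was not tested.

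**Figure D5:**
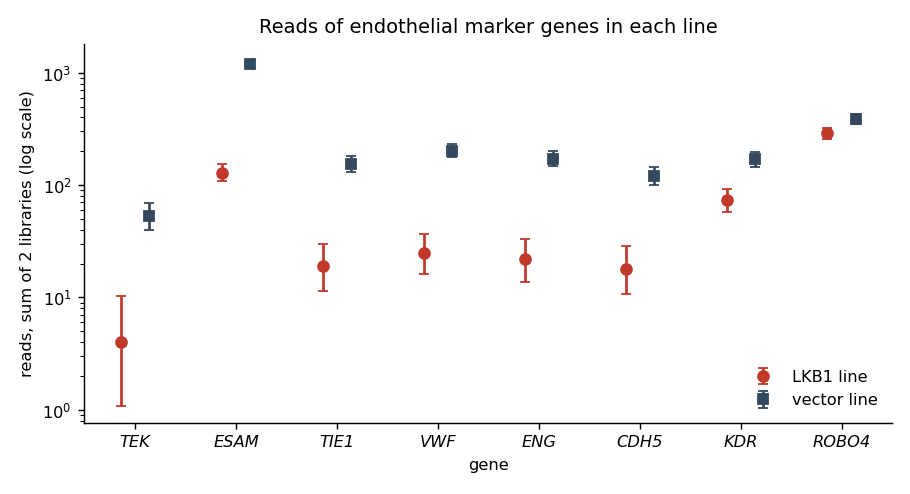
Reads of 8 endothelial marker genes on a log scale, as sums over the 2 libraries of each line, with the LKB1 line as circles, the vector line as squares and exact Poisson 95% intervals. The LKB1 line lies below the vector line for each of the 8 genes, most narrowly for ROBO4, with 290 reads against 386.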

How the data were processed

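RNA was measured in 4 libraries, 2 of the LKB1 line and 2 of the vector line, made by a stranded whole-transcriptome method per the labels' protocols. Per the submitters' processing notes, edgeR 2.6.0, TopHat2 2.0.6, CASAVA 1.8.2 and hg19 were used, in roles the notes leave out. The counting method, its use of strand and any filter were not given in the sources used here. According to the columns and per the file headers, the authors deposited a fold (a ratio), its log2 and a p-value with its adjusted p-value for each gene. The deposited adjusted p-values differed from a Benjamini-Hochberg adjustment over all 34675 genes by at most 1.9e-06. The members and all gene lists were chosen with earlier results of these data known.

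Read totals per line were recovered from the deposited fold, with prior counts of 0.255 reads for the LKB1 line and 0.245 for the vector line. This resolved 27278 of 28242 genes with reads (96.6%) into whole totals up to 3000 per line, with the log2 fold matched to its last decimal. Genes whose totals were not recovered were assumed to pass every read minimum. Constants altered slightly matched 33 to 50 genes, against 13859 with the constants used, counting totals above 20 reads in a line. Unresolved genes were taken as well covered, and at the assumed variation of 0.2 they were tested by a normal approximation without read totals. Standard errors were implied from the deposited fold and p-value by a normal approximation, which fell below counting error for some genes with large folds. Exact intervals cover counting error only. Transcript lengths came from GENCODE 29, matched by Ensembl identifier. No figure for the depth of single libraries is in the table. Named were all members, STK11, and from each list up to 4 genes with the smallest p and at least 40 reads, or any called; MOG, SOX9, ZEB1, PARD3, CLDN16, JAM3, CDKN2A and the cell type markers were named after their values were seen. From the lists 2 genes were left out of every count and are not reported here; members of a list that are not named stand only in its counts. The alternatives were a minimum of 40 reads before adjustment, an exact negative binomial test with a variation of 0.2 assumed between libraries, centring on the median of protein-coding genes, stricter thresholds and another transcript length; the test and the recovery were tested on simulated data. Computations used Python 3.11.15, NumPy 2.4.6, pandas 2.3.3 and SciPy 1.17.1.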

Additional observations from a re-analysis of the deposited data

How the results depend on the processing

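With a variation of 0.2 assumed between libraries for every gene, CLDN11 (adjusted p = 2.14e-18) and TJP3 still passed, so 2 members were called lower and 0 higher, while CLDN7 (adjusted p = 0.0627), OCLN (0.134), CLDN1 (0.152) and CLDN4 (0.382) did not pass, and neither did STK11 (log2 0.62, adjusted p = 0.551). Among listed genes with at least 40 reads, 0 other membrane proteins, 0 polarity genes and 0 plaque and scaffold genes were called under the same assumption. JAM3, a membrane protein gene below that minimum, still passed as lower in the LKB1 line (adjusted p = 9.96e-06, same exact test). With adjustment over genes of at least 40 reads, 2 membrane proteins (ILDR2 joined CXADR) and 2 plaque and scaffold genes (MPDZ joined INADL) were called higher, and 1 regulator, KLF5, was called lower. Centring on the protein-coding median, and a fold of at least 1.5, left every count of members as it was, and at an adjusted p under 0.01 CLDN1 was lost, leaving 4 members lower. With the median transcript length the level in the LKB1 line was 186 reads per kb for CLDN7, 748 for CLDN12, 27.3 for OCLN and 379 for TJP1, against 523 for CLDN4. The cause of these changes was not tested. Leaving out single libraries was not run, since the table holds no value per library. No paired analysis was possible because the labels number no replicates and the table holds 1 comparison.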
